A study of Homo sapiens with 25 samples.

Results

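FOXD2 tag enhancer sites are stretches of the HCT116 genome where 4 ChIP-seq peak lists for tagged FOXD2 coincide on chromatin that carries H3K4me1 but not H3K4me3. The peaks of the 4 tag lists, from 2 libraries against 6xHis and 2 against FLAG, were merged on chromosomes 1 to 22 and X. A merged region was kept where it held a peak of all 4 tag lists and all 4 H3K4me1 lists, and no peak of either H3K4me3 list. This left 1324 sites, which were 24.5% of the 5399 sites found by all 4 tag lists and 1.45% of the 91522 merged tag regions. The sites were thus chosen by the peaks of the tag, H3K4me1 and H3K4me3 lists, whose values are given here as descriptions, without a test. H3K27ac and MLL4 played no part in the choice, and these are the measures compared below.

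HCT116 is a human colorectal carcinoma line. FOXD2 cells were transduced with a pSin lentivirus carrying the full-length FOXD2 coding sequence, and control cells with the empty pSin vector. H3K4me1, H3K27ac and MLL4 had 2 lists per group, and H3K4me3 had 1. The tags were mapped in other cells, labelled pcDNA3.1-FOXD2-3xflag-6xhis, so the FOXD2 of the tag lists is not the FOXD2 of the pSin cells. All cells grew under puromycin, per the labels. FOXD2 came from a vector in both designs, and tag antibodies were not used on untagged cells in these data, so a background shared by the 4 tag lists was not tested. The labels do not say whether replicates were separate cultures, and the tests below therefore set differences against a spread between libraries that may be technical only. Of the 12 colorectal epithelial marker genes, 10 had a peak of both H3K4me3 lists within 1 kb of the gene, EPCAM, CDH1, CDX2 and KRT19 among them. So did 5 of 6 neural, 3 of 6 fibroblast and endothelial and 2 of 6 blood markers, a count that includes peaks of neighbouring genes.

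Enhancers are stretches of DNA that raise transcription of genes at a distance. MLL4, encoded by KMT2D, places H3K4me1 on enhancer nucleosomes, and acetylation of the same nucleosomes at H3K27 by CREBBP and EP300 marks enhancers in an active state. H3K4me3 marks promoters instead. Forkhead factors such as FOXD2 bind DNA through a winged-helix domain, and in epithelial and carcinoma cells many enhancers are also bound by AP-1, the dimer of FOS and JUN proteins.

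Sequence could be read where a site overlapped an annotated promoter window in the RefSeq table of GRCh38.p14, which gives 300 bases per start, 250 before it and 50 after. The table holds windows for 15812 of 19974 protein-coding genes. In all, 23 of the 1324 sites overlapped 24 of these windows, and the sequence of the other sites was not analysed here. The windows below lie at a site with MLL4 in all 4 lists (PHACTR4), at the site among them with the strongest tag peaks (KIAA1217), at the sites whose windows held the AP-1 motif at 2 places (CPA4 and LINC02535), and at the strongest site among them without the motif (ATF7IP), all chosen after their values were seen. Each is printed 5′ to 3′ on the strand of its gene, and capitals mark TGACTCA or its reverse complement TGAGTCA, the AP-1 consensus.
PHACTR4 (chr1:28437900-28438199, plus strand): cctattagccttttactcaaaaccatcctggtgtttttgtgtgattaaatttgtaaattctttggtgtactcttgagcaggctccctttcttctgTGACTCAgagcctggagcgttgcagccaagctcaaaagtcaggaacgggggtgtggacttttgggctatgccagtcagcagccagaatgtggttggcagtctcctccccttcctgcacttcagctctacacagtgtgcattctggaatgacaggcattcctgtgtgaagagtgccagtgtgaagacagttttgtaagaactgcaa
KIAA1217 (chr10:24466281-24466580, plus strand): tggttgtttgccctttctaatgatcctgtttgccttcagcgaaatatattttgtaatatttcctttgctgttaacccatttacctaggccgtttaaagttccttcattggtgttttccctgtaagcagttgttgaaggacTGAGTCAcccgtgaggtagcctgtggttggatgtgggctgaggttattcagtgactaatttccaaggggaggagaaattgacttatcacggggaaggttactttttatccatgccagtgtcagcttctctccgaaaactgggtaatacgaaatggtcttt
CPA4 (chr7:130292911-130293210, plus strand): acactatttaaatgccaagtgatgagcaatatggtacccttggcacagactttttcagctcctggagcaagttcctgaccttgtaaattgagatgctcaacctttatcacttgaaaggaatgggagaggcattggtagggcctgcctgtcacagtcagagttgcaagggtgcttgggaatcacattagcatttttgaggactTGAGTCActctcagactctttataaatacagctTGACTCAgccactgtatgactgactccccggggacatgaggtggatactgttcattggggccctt
LINC02535 (chr6:85404753-85405052, minus strand): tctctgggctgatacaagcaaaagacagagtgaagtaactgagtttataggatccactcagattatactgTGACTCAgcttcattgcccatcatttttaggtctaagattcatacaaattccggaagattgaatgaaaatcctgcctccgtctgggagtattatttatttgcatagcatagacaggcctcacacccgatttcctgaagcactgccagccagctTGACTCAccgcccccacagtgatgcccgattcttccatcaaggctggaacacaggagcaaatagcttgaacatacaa
ATF7IP (chr12:14385031-14385330, plus strand): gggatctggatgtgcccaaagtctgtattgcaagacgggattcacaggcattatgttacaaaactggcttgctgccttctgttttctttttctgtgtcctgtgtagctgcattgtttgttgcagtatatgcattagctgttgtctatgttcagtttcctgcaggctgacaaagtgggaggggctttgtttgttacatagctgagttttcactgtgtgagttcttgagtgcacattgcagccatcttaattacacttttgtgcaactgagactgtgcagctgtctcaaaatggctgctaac

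TGACTCA, on either strand, was found in 11 of the 24 windows (45.8%, 95% Wilson interval 27.9 to 64.9), which lay in 10 of the 23 sites. The 2 windows of the KIAA1217 site overlap each other. The same letters were in 49 of 1083 windows at promoter tag sites (4.52%), defined as tag sites with both H3K4me3 lists, and in 118 of 829 windows at H3K4me1 regions without a tag peak (14.2%). Over all 34961 windows the share was 4.92%. The forkhead motifs GTAAACA and ATAAACA, searched on both strands, were in 0 of the 24 windows, against 5.82% of the windows at promoter tag sites, 10.9% of those at H3K4me1 regions without a tag peak and 7.42% of all windows. With 24 windows, the 95% Wilson interval of 0 reaches 13.8%, which covers the share of all windows. A match of letters is not a binding site, and these windows are the few members that lie at an annotated start. Windows of chromosome 8, where 102 of the sites lie, were not analysed here and enter none of these counts.

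The tag sites at enhancers were short. Their median width was 1106.5 bp, and the widths ran between 374 and 11207 bp. Of them 883 (66.7%) lay inside a protein-coding gene, and 1067 (80.6%) lay more than 2 kb away from the start and end of each annotated gene. At promoter tag sites 25.7% lay that far from gene ends, and at the 1146 tag sites without any histone mark 83.3% did. Unmarked tag sites were inside genes more often, at 91.3%, and H3K4me1 regions without a tag peak less often, at 53.9%. These shares were not tested. The sites were assigned to 933 genes, and 103 had no protein-coding gene within 100 kb.

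The rule has sharp edges. A further 1937 merged regions had 3 of the 4 tag lists, with all 4 H3K4me1 lists and no H3K4me3. Among sites of all 4 tag lists without H3K4me3, 227 carried H3K4me1 in 3 lists, 257 in 2, 221 in 1 and 1279 in none. H3K4me3 from 1 of its 2 lists kept out 325 sites. The nearest H3K4me3 peak lay a median of 10.9 kb away, and 98 sites had one closer than 500 bp, the closest at 2 bp. At −log10 q of 5 or more in the tag, H3K4me1 and H3K4me3 lists, 445 sites were left, and without 6xHis replicate 2, the shortest tag list, there were 2153.

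The strongest site by the sum of its ranks over the 4 tag lists lay in AP1S3, a subunit of a clathrin adaptor (chr2:223759585-223761457). Its fold enrichment over background, the value the authors deposited for each peak, was 8.91 and 8.95 in the 6xHis lists and 8.58 and 12.3 in the FLAG lists. H3K27ac lay there in all 4 lists. The next sites were in TRA2B (chr3:185920290-185931496), in LUC7L3 and in DDX42. These encode a splicing regulator, a splicing-associated protein and a DEAD-box RNA helicase. TRA2B was also the widest site, at 11207 bp, and had neither H3K27ac nor MLL4 in any list. EXOC6, AP3S1, EIF2AK2, HNRNPC, HMGA2 and ZNF217 made up the rest of the top 10. ZNF217, a zinc finger protein amplified in carcinomas, was the one of the 10 with both H3K27ac and MLL4 in all lists, at a site 23.7 kb from the gene (chr20:53621366-53622869). That site lay 0.002 kb from an H3K4me3 peak. EIF2AK2 encodes the RNA-activated kinase PKR, and its site had H3K27ac in no list.

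The 5 widest sites all lay inside genes. The other 4 of the 5 widest sites lay in YWHAE, LOC107984142, GRB2 and EIF4H, at 10232, 9069, 8614 and 7330 bp. YWHAE encodes a scaffold protein for phosphorylated partners and GRB2 an adaptor of receptor tyrosine kinases. Of the 175 sites over 2 kb wide, 84% were inside genes and 20% had MLL4 in at least 1 list. Of the 1149 narrower sites, 64.1% were inside genes and 30.1% had MLL4 in at least 1 list. The summits of the 4 tag peaks were a median of 1228 bp apart in wide sites and 337 bp apart in narrow ones. The width is a product of the rule, so this is a description.

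Median tag fold enrichment at the enhancer sites was 4.58 and 4.82 in the 6xHis lists and 4.42 and 4.82 in the FLAG lists. Promoter tag sites had medians of 4.49 and 4.84 for 6xHis and 4.30 and 5.07 for FLAG, and unmarked tag sites 4.64 and 4.90 for 6xHis and 4.48 and 4.79 for FLAG. The enhancer sites thus had the lowest of these medians in 6xHis replicate 2 and the middle one in each other list.

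The sites were unevenly spread along the genome. Chromosome 17 had 138 of them, or 8.82 per 100 H3K4me1 regions, counting regions of all 4 H3K4me1 lists without H3K4me3. The sites counted include 428 that lay in other H3K4me1 regions. Chromosome 8 had 6.87 and chromosome 16 had 6.09, against 4.02 over all chromosomes. Chromosome 19 had 1.52, and X had 0 beside 701 H3K4me1 regions. X also had 0 tag sites of any kind and 148 tag regions of a single list.

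**Figure D1:**
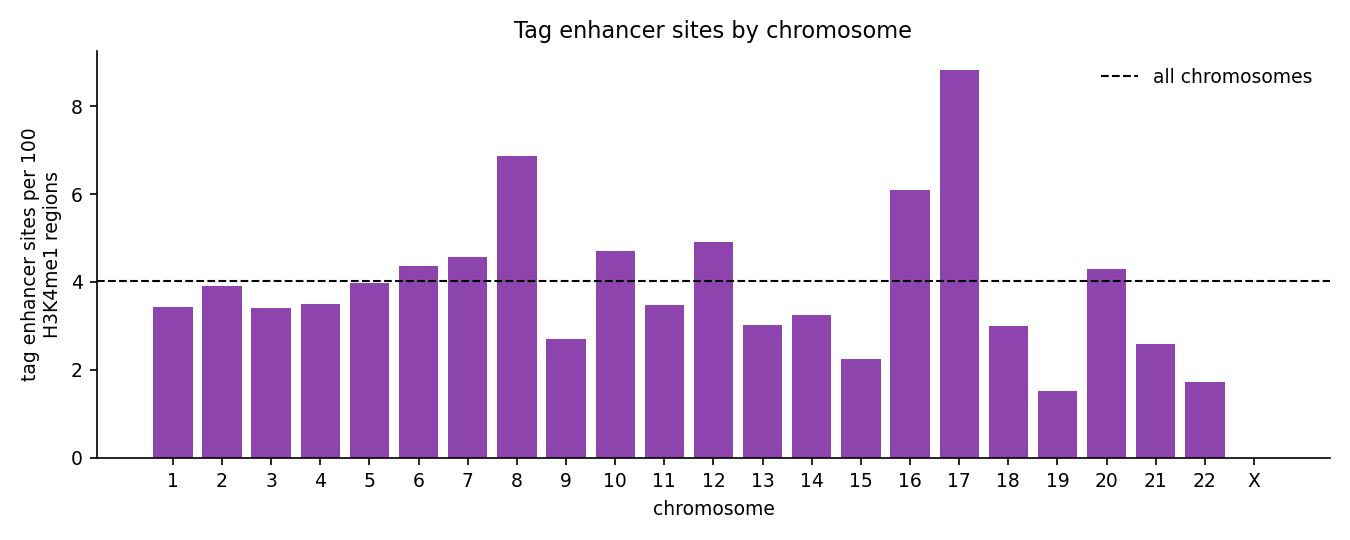
Number of tag enhancer sites per 100 H3K4me1 regions on each chromosome, as bars, with the value over all chromosomes (4.02) as a dashed line. All 1324 sites are counted, and 428 of them lie outside the counted regions. Chromosomes 17, 8 and 16 stand highest, at 8.82, 6.87 and 6.09, and X is at 0.

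The 10-Mb windows with the most sites were 60 to 70 Mb of chromosome 17 with 43, 120 to 130 Mb of chromosome 8 with 31, 110 to 120 Mb of chromosome 10 and 50 to 60 Mb of chromosome 17 with 26 each, and 80 to 90 Mb of chromosome 16 with 24. The other tag sites were dense in the first of these too, with 112. HCT116 is known to carry extra copies of parts of chromosomes 8, 10, 16 and 17. Copy number was not measured here.

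Several genes held clusters of sites. VMP1, which acts in autophagy and lipoprotein release, had 8 over its 134.6 kb, of which 3 had H3K27ac in all 4 lists. NSMCE2, a SUMO ligase of the SMC5/6 complex, and USP10, a deubiquitinase, had 7 each. EZR, which links actin to the plasma membrane, HMGA2, a chromatin architectural protein, LUC7L3 and MED13L, a subunit of the Mediator kinase module, had 6 each, and ANKRD11 had 5. Of the 933 genes, 175 had at least 2 sites.

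The clusters were of different kinds. At NSMCE2, 7 and 6 of the 7 sites had H3K27ac in FOXD2 lists, against 6 and 6 in control lists, and 1 site (chr8:125259340-125260277) had MLL4 in all 4 lists. That site lay 0.184 kb from an H3K4me3 peak. At EZR 5 and 5 of the 6 sites had H3K27ac in FOXD2 lists, against 3 and 4 in control lists, and at ANKRD11 4 and 4 of the 5 sites did in FOXD2 lists, against 2 and 1 in control lists. HMGA2 had the opposite order, with H3K27ac at 2 and 3 of the 6 sites in FOXD2 lists, against 4 and 6 in control lists. At VMP1 the lists overlapped, with H3K27ac at 5 and 4 of the 8 sites in FOXD2 lists, against 5 and 6 in control lists. At MED13L, 1 and 0 of 6 sites had H3K27ac in FOXD2 lists, against 0 and 1 in control lists, and no site had MLL4. At LUC7L3, the 6 sites lay side by side, with H3K27ac at 1 and 2 sites in FOXD2 lists and at 1 and 0 in control lists, and with MLL4 at none.

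H3K27ac at the enhancer sites was the first comparison between the groups. It lay at 61.3% and 47.5% of the 1324 sites in the FOXD2 lists, against 41.5% and 46.8% in the control lists. Both FOXD2 lists were above both control lists, but FOXD2 replicate 2 and control replicate 2 were within 1 percentage point of each other. The means were 54.4% ± 9.8 in FOXD2 and 44.1% ± 3.7 in control cells (SD, n = 2), a difference of 10.3 points with a two-sided exact permutation p of 0.33, the smallest that 2 against 2 allows. The difference was 3.36 points without FOXD2 replicate 1 and 17.2 points without FOXD2 replicate 2, and FOXD2 replicate 1 alone stood apart from the other 3 lists. It was 8.72 points at equal list length, 8.01 at 50% overlap and 9.25 in 500 bp at the tag summit. In these settings the groups overlapped, with an exact permutation p of 0.67. The p stayed at 0.33 at −log10 q of 5 or more, over 2 kb from gene ends and at a merging gap of 500 bp. At H3K4me1 regions without a tag peak, FOXD2 lists had H3K27ac at 47.1% ± 5.0 of regions and control lists at 36.1% ± 3.9 (SD, n = 2), a difference of 10.97 points. Regions with a tag enhancer site and regions without a tag peak differed by -0.30 points in their difference between the groups (exact permutation p = 1.0). At promoter tag sites the share was 88.4% ± 2.1 for FOXD2 lists and 87.7% ± 1.9 for control lists (SD, n = 2).

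**Figure D2:**
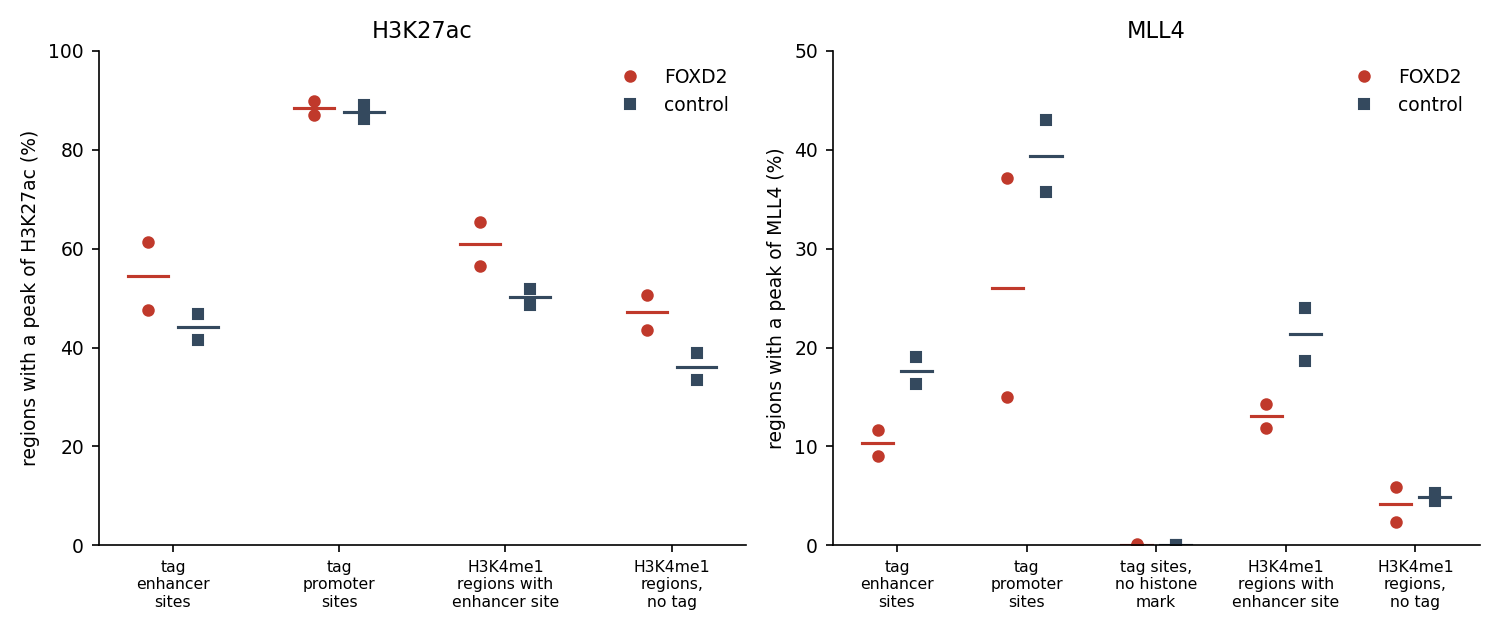
Share of regions with a peak of H3K27ac (left) or MLL4 (right) in each list, for tag enhancer sites and the regions they are compared with. Each point is 1 list, FOXD2 as red circles and control as dark squares, and each line is the mean of 2 lists. The 2 FOXD2 lists are at 61.3% and 47.5% for H3K27ac and at 11.6% and 9.06% for MLL4 at tag enhancer sites.

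By site, 319 (24.1%) had H3K27ac in all 4 lists, 334 (25.2%) in none, 109 (8.23%) in both FOXD2 and neither control list, and 34 (2.57%) in both control and neither FOXD2 list. Over all 5399 tag sites the same classes took 35.6%, 38.1%, 3.45% and 1.43%, and over the 32902 H3K4me1 regions of all 4 lists without H3K4me3 they took 19.9%, 34%, 7.4% and 1.41%. The FOXD2-only share was thus near that of H3K4me1 regions in general. FOXD2-only sites numbered 223 without FOXD2 replicate 2 and 180 without control replicate 2, and control-only sites numbered 120 without FOXD2 replicate 1, 70 without control replicate 1 and 58 without control replicate 2.

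The strongest of the 319 sites acetylated in all 4 lists lay 47.8 kb from EZR and 0.004 kb from an H3K4me3 peak (chr6:158867124-158868152). Its H3K27ac fold enrichment was 18.9 and 27.1 in the FOXD2 lists, and 18.7 and 31.3 in the control lists. These folds are the authors' values within each list, and no list's folds are compared with another's here or below. RPTOR, the substrate-binding subunit of mTORC1, ARHGEF19, AP1S3, TMEM67, PDP1, GNA13 and DLGAP1 were the genes of others among the 10 strongest. A further 2 sites had no protein-coding gene within 100 kb. The AP1S3 site lay 56.6 kb from the gene and is not the strongest tag site. TMEM67 was 41.0 kb from its site, PDP1 35.9, GNA13 34.7 and ARHGEF19 17.4. The TMEM67 and PDP1 sites had the same folds, 22.3 and 13.2 in FOXD2 and 12.5 and 21.5 in control lists. They are thus not independent entries. The nearest H3K4me3 peak was 0.121 kb away at GNA13, 0.336 at TMEM67, 0.655 at ARHGEF19 and 1.025 at DLGAP1. It was 3.425 kb away at PDP1, 22.4 at RPTOR and 26.6 at AP1S3, and 0.55 and 1.62 kb away at the 2 sites without a protein-coding gene within 100 kb. The strongest FOXD2-only acetylated site lay in DNMBP, a guanine nucleotide exchange factor for CDC42 (chr10:99918061-99919317). Its H3K27ac fold enrichment was 11.7 and 14.3 in the FOXD2 lists, and neither control list had a peak in the site itself. Within 5 kb on each side of its tag summit, H3K27ac covered 8.33 and 7.34 kb in FOXD2 lists and 1.60 and 3.06 kb in control lists. At UPP1, the uridine phosphorylase, the site 2.44 kb from the gene had an H3K27ac fold of 10.9 and 12.3 in FOXD2 lists. It was at the same time a control-only site for MLL4, so that the 2 measures had opposite classes there. BAG3, a cochaperone of HSP70, had 6.20 and 8.83 at a site of 3298 bp that lay 0.115 kb from an H3K4me3 peak. DENND10, COTL1, CSNK2A1, CD55, MEGF9, NSMCE2 and USP10 completed the 10. In the same 10 kb, control lists covered 2.43 and 3.73 kb at UPP1 and 3.45 and 1.97 kb at COTL1. They covered no bases at DENND10, CSNK2A1, CD55 and MEGF9. The COTL1 site lay 0.406 kb from an H3K4me3 peak. COTL1 binds filamentous actin and CD55 protects cells from complement.

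Of the 10 strongest control-only acetylated sites, 4 had no protein-coding gene within 100 kb. The strongest of these, on chromosome 4 (chr4:74635187-74636096), had fold enrichments of 6.54 and 16.6 in the control lists. Those with a gene were at CAV2, a caveolin, at 75.4 kb, at MMD, at PCDH7, a protocadherin, at HMGA2, at ARHGAP18 and at SRGAP1. At the MMD site MLL4 was control-only too (8.14 and 12.8). The HMGA2 site was the ninth strongest tag site of all and had 4.80 and 5.32 in the control lists.

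H3K4me1, which the rule used, is described only. Within 5 kb on each side of the tag summit, FOXD2 lists placed H3K4me1 on 4.78 kb ± 0.18 and control lists on 4.46 kb ± 0.41 (SD, n = 2). Over the whole genome the H3K4me1 lists covered 163.8 and 177.4 Mb in FOXD2 and 146.3 and 121.3 Mb in control cells. The FOXD2 lists thus covered more in general, and a gain particular to the sites was not tested. At 559 sites (42.2%) both FOXD2 lists covered more than both control lists, and at 330 (24.9%) both covered less, against 33% and 16.5% of all tag sites. With at least 1 kb between the groups, the counts were 394 (29.8%) and 201 (15.2%), against 21.9% and 8.63% of all tag sites. The largest difference upward was at CSNK1A1, the kinase that starts phosphorylation of beta-catenin, with 8.04 and 9.65 kb in FOXD2 lists, against 3.12 and 2.93 kb in control lists. RAPGEF6, VAPA, AAK1 and ADNP followed. At AAK1 MLL4 also had a peak in both FOXD2 lists and neither control list. The largest difference downward was at PCDH7, with 0.591 and 0.984 kb in FOXD2 lists, against 9.46 and 8.42 kb in control lists. Another PCDH7 site and 2 HMGA2 sites were also among the 5 largest, with IFNE as the other gene. Over the same 10 kb, FOXD2 lists placed H3K27ac on 2.3 kb ± 0.45 and control lists on 1.84 kb ± 0.17 (SD, n = 2, exact permutation p = 0.33). The lists did not overlap at 453 sites with more in FOXD2 (34.2%, against 25.7% of all tag sites) and at 139 with less (10.5%, against 7.93%). With at least 1 kb between the groups they were 305 (23.04%, against 15.2%) and 88 (6.65%, against 4.54%). For both marks, all tag sites include the 1146 without any histone mark, while the rule asks for H3K4me1 at every enhancer site. The higher shares in both directions are thus not set against like sites, and no share over H3K4me1 regions is given here.

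MLL4 at the sites went the other way. It lay at 11.6% and 9.06% of the 1324 sites in FOXD2 lists, against 16.3% and 19.0% in control lists. Both FOXD2 lists were below both control lists. The means were 10.3% ± 1.8 in FOXD2 and 17.7% ± 1.9 in control cells (SD, n = 2), a difference of -7.33 points with an exact permutation p of 0.33, two-sided, the smallest possible. FOXD2 replicate 2 had 4676 MLL4 peaks, while the other lists had between 13571 and 22493. Without it the difference was -6.04 points. The longest list was FOXD2 replicate 1, which still had the lower share. When every MLL4 list was shortened to its strongest 4676 peaks, the difference was -0.60 points (exact permutation p = 1.0). At H3K4me1 regions without a tag peak the share was 4.14% ± 2.4 for FOXD2 lists and 4.88% ± 0.59 for control lists (SD, n = 2). The difference between the groups at H3K4me1 regions with a tag enhancer site, minus that at regions without a tag peak, was -7.54 points (exact permutation p = 0.33). The mean MLL4 share was lower in FOXD2 lists at other tag sites as well. At promoter tag sites it was 26.0% ± 15.7 for FOXD2 lists and 39.4% ± 5.1 for control lists, a difference of -13.3 points (SD, n = 2, exact permutation p = 0.67). Over all tag sites it was 13.1% ± 5.9 for FOXD2 lists and 20.5% ± 1.1 for control lists, a difference of -7.36 points (SD, n = 2, exact permutation p = 0.33).

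By site, 43 (3.25%) had MLL4 in all 4 lists and 943 (71.2%) in none, against 5.32% and 69.1% of all tag sites and 0.599% and 84.5% of H3K4me1 regions. MLL4 in both FOXD2 and neither control list was seen at 9 sites (0.680%), and control-only MLL4 at 64 (4.83%), against 0.389% and 4.3% of all tag sites and 0.556% and 1.5% of H3K4me1 regions. Without the short FOXD2 replicate 2, 75 sites had all of the 3 other lists. FOXD2-only sites numbered 31 and 43 without FOXD2 replicate 1 or 2, and 19 and 18 without control replicate 1 or 2, and control-only sites 134 and 108 without control replicate 1 or 2. The strongest of the 43 was 0.934 kb from an H3K4me3 peak and 30.4 kb from SLC25A4, the mitochondrial adenine nucleotide carrier of heart and muscle (chr4:185112000-185112861). Its MLL4 fold enrichment was 10.1 and 14.9 in FOXD2 lists and 18.6 and 20.0 in control lists. MTHFD2L, PTPN14, FANK1, NEBL, TM4SF18, NT5E, ZDHHC3 and PHACTR4 followed, with 1 site that had no protein-coding gene within 100 kb. The FANK1 and NEBL sites lay 0.219 and 0.357 kb from an H3K4me3 peak. PTPN14 is a tyrosine phosphatase that restrains YAP, and PHACTR4 binds actin and protein phosphatase 1.

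The 9 FOXD2-only MLL4 sites were nearest to AAK1, RUNX2, SPAG9, ATG16L1, KCNN3, TSC22D2, SMKR1, TPD52 and XPO6, with TPD52 85.2 kb away. The TSC22D2 site lay 0.018 kb from an H3K4me3 peak. RUNX2, an osteoblast transcription factor, was the one of the 9 with H3K27ac FOXD2-only as well (chr6:45444720-45446301), with MLL4 fold of 6.39 and 6.00 in FOXD2 lists. Of the 10 strongest control-only MLL4 sites, 6 were nearest to MMD, MUSK, SKAP1, BACH2, OSBPL9 and CDC73, with BACH2 72.1 kb away. The other 4 had no protein-coding gene within 100 kb. Of these, the site at chr1:8189798-8190666 was not more than 2 kb away from all annotated gene ends. BACH2 is a B cell transcription repressor and CDC73 a subunit of the PAF1 complex.

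Sites with H3K27ac in every list carried MLL4 more often than sites with none, a difference described without a test. MLL4 had a peak in at least 1 list at 170 of the 319 sites with H3K27ac in all 4 lists (53.3%), and at 34 of the 334 sites with none (10.2%). Of FOXD2-only acetylated sites 24.8% had it, and of control-only acetylated sites 32.4%. MLL4 lay at 14 and 6 of the 109 FOXD2-only acetylated sites in the FOXD2 lists, against 11 and 17 in the control lists. For the 34 control-only acetylated sites, it lay at 2 and 0 in the FOXD2 lists, against 8 and 10 in the control lists. Of sites with MLL4 in all 4 lists, 32 of 43 also had H3K27ac in all 4.

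The position of each mark relative to the tag was measured from the tag summit. MLL4 was sharply centred. At the tag summit it covered 7.70% and 5.89% of sites in FOXD2 lists, against 11.5% and 13.4% in control lists, and 1 kb away, averaged over both sides, 0.604% and 0.415% in FOXD2 lists, against 1.28% and 1.25% in control lists. The MLL4 and tag summits were a median of 147.5 and 137.5 bp apart in FOXD2 lists and 148.5 and 140.5 bp apart in control lists, at sites that held both. H3K27ac was broad and flat at the summit. It covered 39.2% and 23.3% of sites at the summit in FOXD2 lists, against 21.1% and 26.6% in control lists, with its highest values 400 or 500 bp away. The H3K27ac and tag summits were a median of 508.5 and 505 bp apart in FOXD2 lists and 492 and 484 bp apart in control lists. H3K4me1 covered between 85.8% and 90.5% of sites at the summit, which the rule brings about.

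**Figure D3:**
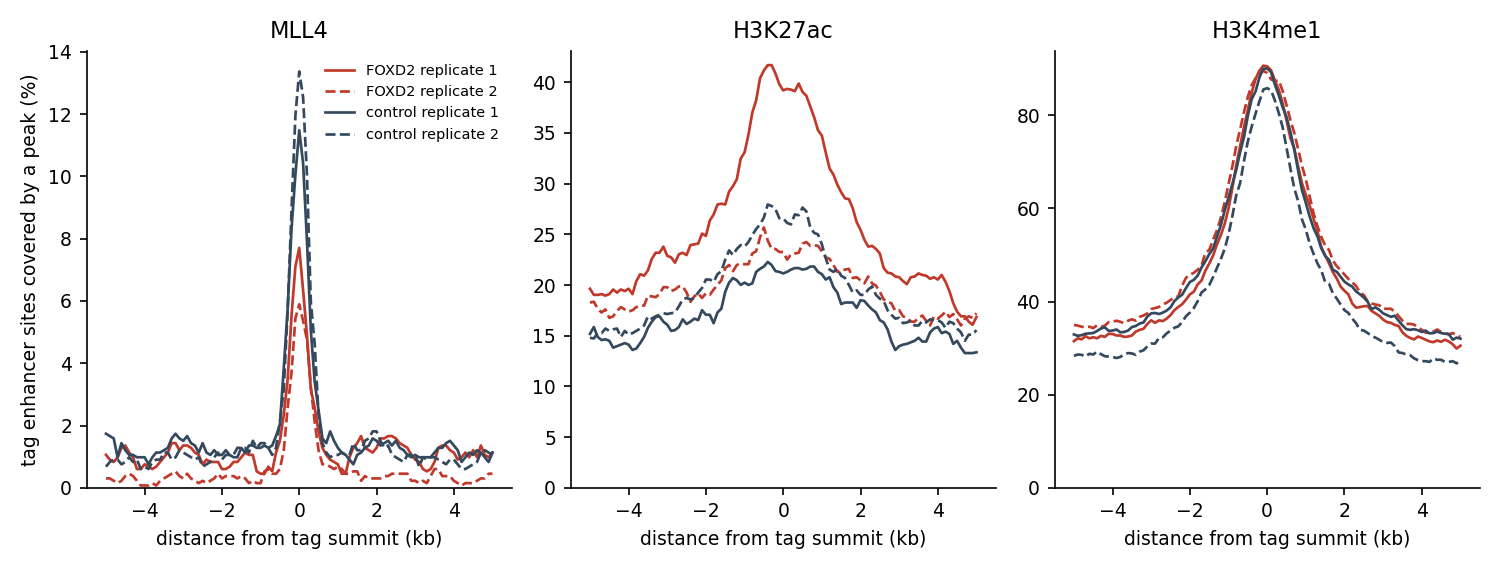
Share of tag enhancer sites covered by a peak of MLL4, H3K27ac or H3K4me1 at each distance from the tag summit, in kb, with a line per list (FOXD2 red, control dark, replicate 2 dashed). MLL4 rises to 7.70% and 5.89% in FOXD2 and to 11.5% and 13.4% in control lists at the summit, while H3K27ac is highest 400 or 500 bp beside it.

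The sites were next set against promoter tag sites. H3K27ac lay at 49.3% ± 8.5 of enhancer sites and 88.0% ± 1.7 of promoter sites (SD, n = 4 lists), a difference of -38.8 points, lower in 4 of 4 lists. MLL4 lay at 14.0% ± 4.5 of enhancer sites and 32.7% ± 12.2 of promoter sites (SD, n = 4 lists), a difference of -18.7 points, again lower in 4 of 4. Each had a two-sided exact sign-flip permutation p of 0.13 over the 4 lists, the smallest that 4 allow. MLL4 was nearly absent from the 1146 tag sites without any histone mark, with 2 and 0 sites in FOXD2 lists and 1 and 0 in control lists. Set against these, the enhancer sites were higher by 13.9 points (exact sign-flip permutation p = 0.13, 4 of 4 lists).

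The last comparison was among H3K4me1 regions, with a tag enhancer site or without a tag peak. Of the 1324 sites, 896 lay in an H3K4me1 region of all 4 lists without H3K4me3. The 428 in another H3K4me1 region are outside this comparison and the width weighting below. Of the 32902 H3K4me1 regions of all 4 lists without H3K4me3, 863 held a tag enhancer site and 23502 held no tag peak at all. MLL4 was found at 17.2% ± 5.3 of those with a site and 4.51% ± 1.5 of those without a tag peak (SD, n = 4 lists). The difference was 12.7 points, and the share with a site was 2.43 to 4.90 times that without (exact sign-flip permutation p = 0.13, higher in 4 of 4 lists). H3K27ac was found at 55.6% ± 7.3 and 41.6% ± 7.3 of the same regions (SD, n = 4 lists), a difference of 13.9 points (exact sign-flip permutation p = 0.13, higher in 4 of 4 lists). Regions with a site were wider, at a median of 3098 bp against 1524 bp.

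At equal width, the differences for H3K27ac and MLL4 parted. When regions without a tag peak were weighted to the width deciles of those with a site, the H3K27ac shares were 55.6% with a site and 58.8% without, a mean difference of -3.25 points, the opposite direction (exact sign-flip permutation p = 0.375). By list it was -0.586 and -11.9 points in FOXD2 replicates 1 and 2, and -3.44 and 2.94 points in control replicates 1 and 2. The lists thus did not share a direction, and FOXD2 replicate 2 lay furthest from 0. The MLL4 shares were 17.2% with a site and 9.58% without, a difference of 7.60 points (exact sign-flip permutation p = 0.13, higher in 4 of 4 lists). By list the MLL4 difference was 2.13 and 4.78 points in FOXD2 lists, and 10.1 and 13.4 points in control lists. Among regions of 2 to 4 kb, MLL4 lay at 17.3% with a site and 7.59% without, and H3K27ac at 55.7% with a site and 55.5% without. Among regions of 4 to 8 kb, MLL4 lay at 26.4% with a site and 14.2% without. In narrower regions H3K27ac was less frequent with a site, at 30.3% with and 38.5% without at 1 to 2 kb, and at 13.5% with and 21.6% without up to 1 kb. Up to 1 kb, where 39 regions held a site, MLL4 lay at 0.641% with a site and 1.06% without.

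**Figure D4:**
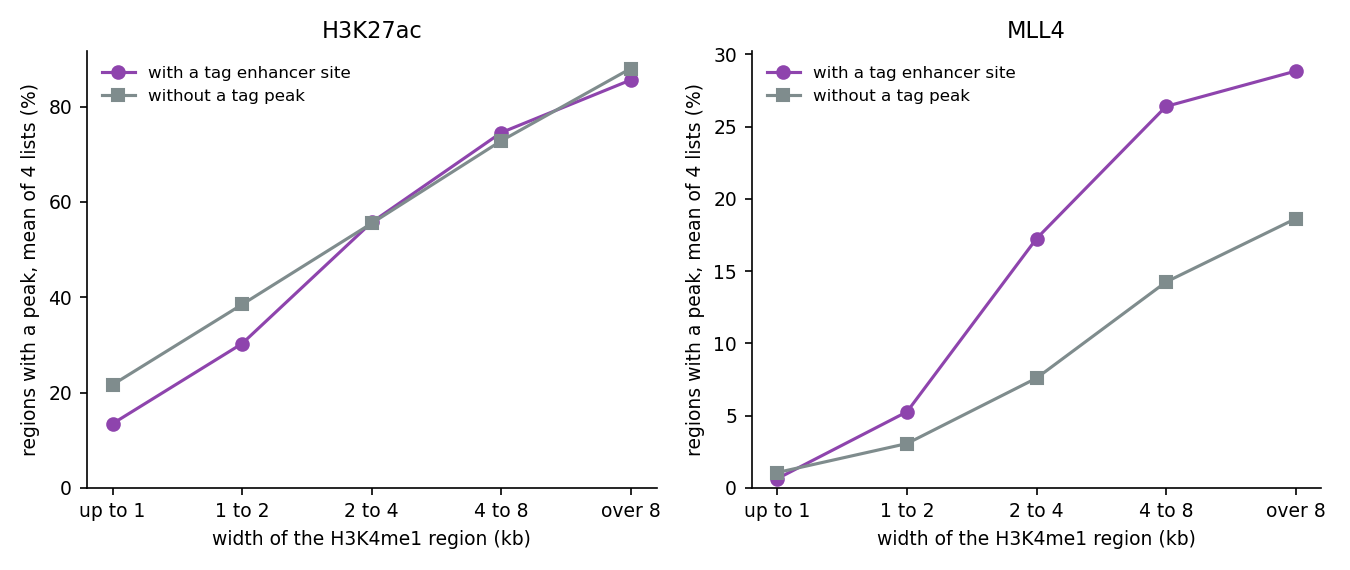
Share of H3K4me1 regions with a peak of H3K27ac (left) or MLL4 (right), as the mean of 4 lists, by width of the region in kb, for regions with a tag enhancer site (purple circles) and without a tag peak (grey squares). At 2 to 4 kb the H3K27ac shares are 55.7% and 55.5% and the MLL4 shares 17.3% and 7.59%.

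The genes near the sites were counted by lists chosen with earlier results of these data known, and without a set test. Over all protein-coding genes 4.67% had a tag enhancer site. Set against the 10206 genes with an H3K4me1 region, the genes with a site gave a ratio of 9.14%. It is not a share, since 428 sites lay outside the H3K4me1 regions of all 4 lists without H3K4me3. A gene with a site thus need not be among the 10206. Of 21 heat shock and chaperone genes 11 had a site, which were BAG3, CHORDC1, DNAJB1, DNAJB6, HSP90AA1, HSP90AB1, HSPA8, HSPA9, HSPD1, HSPH1 and STIP1. Of 23 hnRNP and SR splicing factor genes 10 did, TRA2B, HNRNPC, SRSF3 and HNRNPA1 with the strongest tag peaks. A tag site of any kind was found at 16 of the 21 heat shock and chaperone genes and 21 of the 23 splicing factor genes, against 2993 of all 19974 genes. The 37 sites of both lists were wide, at a median of 1857 bp, and 86.5% lay inside a gene. MLL4 had a peak in at least 1 list at 13.5% of them, against 28.8% of all 1324 sites. The HSP90AA1 site, 6699 bp wide, had H3K27ac in all 4 lists, with a fold of 12.8 and 17.7 in FOXD2 lists and 13.1 and 17.6 in control lists. It lay 0.736 kb from the gene and 0.664 kb from an H3K4me3 peak.

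Coactivator and signalling genes came next. Of 19 enhancer coactivator genes 5 had a site, among them CREBBP, the H3K27 acetyltransferase, and MED13. Of 23 genes of EGFR and MAPK feedback 5 did, including DUSP1, a MAP kinase phosphatase with H3K27ac fold of 13.3 and 13.6 in FOXD2 lists and 6.12 and 10.3 in control lists. The DUSP1 site lay 1.16 kb from the gene and 0.385 kb from an H3K4me3 peak. At ERRFI1, a feedback inhibitor of EGFR, the site 66.2 kb away had an H3K27ac peak in 1 FOXD2 list (fold 3.63) and in both control lists (17.8 and 24.9). This site lay 0.052 kb from an H3K4me3 peak. Of 24 Wnt genes 4 had a site, TCF7L2, MYC, EPHB3 and CD44, with 8 sites in all. TCF7L2, the main Wnt transcription factor of the gut, had 4 of these, and H3K27ac lay at 2 and 2 of the 4 in FOXD2 lists, against 2 and 2 in control lists.

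**Figure D5:**
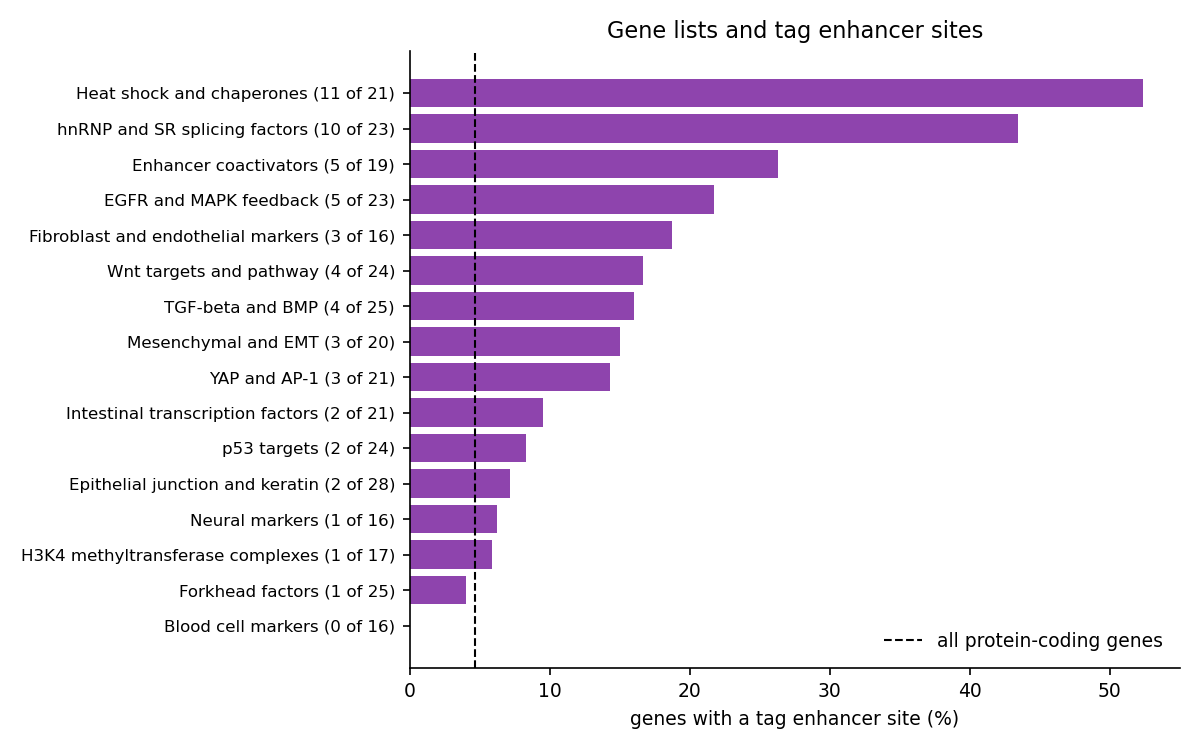
Percent of the genes of each list with a tag enhancer site, as bars, with the percent over all protein-coding genes (4.67%) as a dashed line. As a ratio to the number of genes with an H3K4me1 region, which is not drawn, the value over all genes is 9.14%. Numbers beside the names are genes with a site of all genes in the list, 11 of 21 for heat shock and chaperone genes and 0 of 16 for blood cell markers.

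Of 25 TGF-beta and BMP genes 4 had a site, ACVR1, SMAD3, SMURF1 and SMURF2, and of 21 YAP and AP-1 genes 3 did. Of 21 intestinal transcription factor genes 2 did, KLF5 and EHF, and of 28 epithelial junction and keratin genes 2 did, GRHL2 and TJP1. Of 24 p53 targets, PPM1D and TNFRSF10B did. Among 17 genes of H3K4 methyltransferase complexes MEN1 alone had a site, and among 25 forkhead genes FOXK2 alone did. FOXD2 itself and KMT2D had no peak in any tag list. Of 20 mesenchymal genes 3 had a site, of 16 fibroblast and endothelial markers 3, of 16 neural markers 1 and of 16 blood markers 0. As a ratio to the genes with an H3K4me1 region, 9.14% over all genes, forkhead genes stood at 5.56% and epithelial genes at 9.52%. Neural markers stood at 10% and intestinal factors at 11.1%, blood markers at 0 and the other lists higher.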

How the data were processed

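ChIP-seq of HCT116 cells gave 18 deposited peak lists, 1 per library, while 7 input libraries were left aside. Listed in the submitters' processing notes are hg38 as the build and, as tools, bedtools, MACS2 2.2.7.1, Picard, Bowtie2 2.3.4.1 and cutadapt 3.4. Per the labels' protocols, MLL4 and tag libraries used chromatin fixed with formaldehyde and sonicated, while histone libraries used unfixed chromatin cut with MNase. In the deposited lists, each peak's fold enrichment is a ratio over background and its q-value is given as −log10, with q of at most 0.01. Both are the authors' values, and peaks were ranked and filtered by them only inside their own list. Folds of several lists at 1 site are printed side by side as descriptions, without a comparison. Peaks were called per library. Read depth is unknown, and the sources used here do not say which library was the background. Some peak names carry another replicate number than the labels, which were followed.

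Peaks of each list on chromosomes 1 to 22 and X were kept. Regions were merged at a gap of 0 bp, and a list held a region at 1 bp of overlap. Each site was given the protein-coding gene closest to it, up to 100 kb from its span, in the RefSeq table (GRCh38.p14). The members and the 16 gene lists were chosen with earlier results of these data known, and 1 further list is not reported here. Named sites follow ranks of −log10 q summed over lists (the 10 strongest by tag, by MLL4 and by H3K27ac, and the 10 strongest FOXD2-only and control-only sites of the last 2), the 5 widest, the 5 largest differences in H3K4me1 coverage each way, the 8 genes with most sites and up to 4 genes per list. Groups were compared by two-sided exact permutation tests over libraries and kinds of region by two-sided exact sign-flip tests over the 4 lists. Wilson intervals (95%) cover the counting of regions only. Same-numbered replicates deviated with a correlation of -0.38 for H3K27ac and 0.16 for MLL4 over the 5399 tag sites, and the labels do not say that a number marks a shared culture. Alternatives were equal list lengths, a −log10 q of 5 or more, 50% overlap, a gap of 500 bp, 500 bp at the tag summit, distal regions, width weighting, gene distances of 20 and 50 kb, each library left out and a replicate block. The steps were tested on simulated data. Python 3.11.15, numpy 2.4.6, pandas 2.3.3, scipy 1.17.1 and matplotlib 3.10.9 were used. A motif search in the sites themselves needs genome sequence and was not run.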

Additional observations from a re-analysis of the deposited data

How the results depend on the processing

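The differences between groups or kinds of region kept their sign under 76 of 77 alternatives, and the exception was H3K27ac at H3K4me1 regions with a tag enhancer site against those without a tag peak, at -3.25 points when weighted by width. Part of the 77 could not change the sign. A replicate block averages the same values, and leaving out 1 list cannot reverse a difference that all lists share. The 76 include MLL4 between groups at equal list length, at only -0.60 points. None of the tests can pass 0.05 with so few libraries. With 1 library left out, the number of sites ran between 1348 and 2153, and the FOXD2 minus control difference between 3.36 and 17.2 points for H3K27ac and between -8.69 and -5.97 points for MLL4. Against promoter tag sites the ranges were -42.1 to -36.8 points for H3K27ac and -23.0 to -16.0 for MLL4, against unmarked tag sites 12.2 to 15.6 for MLL4, and against H3K4me1 regions without a tag peak 11.3 to 16.6 for H3K27ac and 10.7 to 14.1 for MLL4. H3K27ac sites of all lists, of no list, FOXD2-only and control-only then numbered 332 to 405, 358 to 448, 155 to 223 and 47 to 120, and those of MLL4 52 to 75, 965 to 1013, 18 to 43 and 77 to 134. At −log10 q of 5 or more there were 445 sites in all, and MLL4 counts of 25 in all lists and 5 FOXD2-only. At equal list length 22 sites had MLL4 in all lists and 23 control-only. Other alternatives that moved values by over 1.5 times were equal list length, which gave -0.60 points for MLL4 between groups, distal regions and 500 bp at the tag summit, which gave -38.5 and -11.1 points for MLL4 against promoter tag sites, and width weighting, which gave 7.60 points for MLL4 against H3K4me1 regions without a tag peak.

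The labels' replicate numbers share no stated source, so no pairing was assumed. A replicate block left the differences at 10.3 points for H3K27ac and -7.33 for MLL4, with an exact permutation p of 0.5, the smallest that 2 pairs allow. Crossing the numbers for H3K27ac, an alternative added after seeing the data, averages the same values and again gave 10.3 points. Both crossed pairs had to be positive, since both FOXD2 lists were above both control lists. Sites up to 2 kb wide, sites over 500 bp from H3K4me3 peaks, sites outside chromosomes 8 and 17, and classes without each library were also added then, with no change of sign. For H3K27ac the groups overlapped at sites up to 2 kb wide (9.44 points) and outside chromosomes 8 and 17 (9.41 points), each with an exact permutation p of 0.67. At sites over 500 bp from H3K4me3 peaks it was 0.33 (10.4 points). The motif search in the sites was not run.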
